A study of Mus musculus with 6 samples.

Results

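The genes described here are the major histocompatibility complex (MHC) genes measured in mouse dorsal root ganglia, which hold the cell bodies of the neurons that sense touch, pain and itch. They were taken as every protein-coding gene whose symbol begins with H2- and that had at least 1 read in any library. This gave 29 of the 54532 genes in the deposited count table. By symbol, 19 encode class I molecules, 9 encode class II molecules or their loading partners, and H2-Ke6 belongs to neither class. All 29 lie on chromosome 17 of GRCm38. The study sequenced bulk RNA of ganglia from wild-type mice (WT, 3 libraries) and from Ash1l+/- mice (3 libraries), littermates by the series' design text, with no treatment named and no litter given for any library. The labels used here name no strain, age, form of the Ash1l allele or pooling of animals, and none says that each library is a separate animal. The p-values below therefore refer to the spread between these libraries, part of which may be technical. In bulk tissue, a lower level from fewer cells of a type and from less RNA per cell cannot be told apart.

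MHC molecules hold peptides at the cell surface for T cells to inspect. Class I molecules are made by nearly all nucleated cells, pair with beta-2-microglobulin (B2m) and present peptides that the proteasome cuts and the Tap1-Tap2 transporter moves into the endoplasmic reticulum. Class II molecules are alpha and beta chain pairs made mainly by macrophages, dendritic cells and B cells. The invariant chain (Cd74) guards their groove until H2-DM exchanges its remnant for a peptide. Nlrc5 is the co-activator of class I genes and Ciita that of class II genes, and interferon gamma raises both. In sensory ganglia, resident macrophages are the class II cells usually described, and neurons are known for low class I levels that injury can raise.

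Total gene counts ran from 17209294 to 20545722 per library. WT replicate 2 stood apart from the others. Its log2 CPM (CPM: reads of a gene relative to the scaled library size, with TMM factors) correlated with the other libraries at r = 0.860 to 0.890 across genes, against at least 0.985 among the others, and its TMM factor was 0.759 against 1.05 to 1.07. Over the 16032 genes tested, it lay above all the others in 40.7% and below them all in 44.5%. Fold changes of the MHC and partner genes named with values are therefore given with all 6 libraries and without WT replicate 2. Ash1l, the gene of the genotype, had CPM values of 60.9, 30.9 and 54.4 in the WT libraries and of 66.5, 66.5 and 68.9 in those labelled Ash1l+/-. The level in the latter was no lower, and each of these libraries lay above every WT library (exact two-sided permutation p = 0.1, the smallest that 3 against 3 allows). The log2 fold change was 0.46 (edgeR adjusted p = 0.396) with 6 libraries and 0.22 (adjusted p = 0.0593) without WT replicate 2. With trends with GC content and gene length also removed it was -0.04 (adjusted p = 0.808). The transcript therefore does not check the labels, and where the allele is changed is not given.

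The RefSeq promoter windows (GRCm38.p6, 250 bases before to 50 bases after the annotated start, read on the gene's strand) were available for 26 of the 29 genes. The genes without one were H2-Ab1, H2-T24 and H2-Q1. Windows of 2 abundant class I genes (H2-K1 and H2-D1) and 2 abundant class II genes (H2-Eb1 and H2-Aa) are printed because MHC promoters are known for shared control elements, and those of the H2-DMb pair because these copies are hard to separate by reads. Capitals mark matches, on either strand, to the core of the Y box bound by NF-Y (TGATTGG, or CCAATCA on the other strand), to the kappa B element of class I promoters (GGGATTCCC, or GGGAATCCC) and to an interferon-response sequence (GTTTCACTT, or AAGTGAAAC). The windows lie at chr17:34000284-34000583 (minus strand) for H2-K1, chr17:35262844-35263143 (plus) for H2-D1, chr17:34287774-34288073 (minus) for H2-Aa, chr17:34305617-34305916 (plus) for H2-Eb1, chr17:34152941-34153240 (plus) for H2-DMb1 and chr17:34144999-34145298 (plus) for H2-DMb2.
H2-K1: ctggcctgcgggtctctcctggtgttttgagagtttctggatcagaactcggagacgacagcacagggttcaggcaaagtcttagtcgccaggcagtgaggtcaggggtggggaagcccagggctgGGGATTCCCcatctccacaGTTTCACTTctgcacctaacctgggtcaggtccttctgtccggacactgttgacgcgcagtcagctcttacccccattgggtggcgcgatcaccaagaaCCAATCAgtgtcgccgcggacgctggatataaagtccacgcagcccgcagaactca
H2-D1: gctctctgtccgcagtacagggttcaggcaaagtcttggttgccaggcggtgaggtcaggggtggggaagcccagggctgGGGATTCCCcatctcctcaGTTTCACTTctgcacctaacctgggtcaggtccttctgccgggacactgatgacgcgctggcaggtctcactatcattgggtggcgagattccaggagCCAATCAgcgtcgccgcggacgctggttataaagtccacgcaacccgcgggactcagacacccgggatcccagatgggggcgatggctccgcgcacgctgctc
H2-Aa: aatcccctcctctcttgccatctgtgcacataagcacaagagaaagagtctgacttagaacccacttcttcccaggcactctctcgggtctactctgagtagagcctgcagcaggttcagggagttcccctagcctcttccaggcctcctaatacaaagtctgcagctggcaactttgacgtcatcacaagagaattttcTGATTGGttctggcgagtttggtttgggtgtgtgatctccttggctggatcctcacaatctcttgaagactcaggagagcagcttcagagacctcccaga
H2-Eb1: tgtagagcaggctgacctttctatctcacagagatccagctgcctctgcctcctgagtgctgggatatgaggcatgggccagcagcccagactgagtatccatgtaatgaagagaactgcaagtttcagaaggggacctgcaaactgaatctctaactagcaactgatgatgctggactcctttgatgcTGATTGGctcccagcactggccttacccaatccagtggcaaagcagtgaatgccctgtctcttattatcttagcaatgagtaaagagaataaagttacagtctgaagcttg
H2-DMb1: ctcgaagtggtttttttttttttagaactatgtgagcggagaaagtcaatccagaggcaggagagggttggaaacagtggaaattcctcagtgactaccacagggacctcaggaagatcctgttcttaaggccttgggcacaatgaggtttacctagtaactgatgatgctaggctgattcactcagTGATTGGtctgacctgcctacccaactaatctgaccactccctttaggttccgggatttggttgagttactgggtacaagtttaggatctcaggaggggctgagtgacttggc
H2-DMb2: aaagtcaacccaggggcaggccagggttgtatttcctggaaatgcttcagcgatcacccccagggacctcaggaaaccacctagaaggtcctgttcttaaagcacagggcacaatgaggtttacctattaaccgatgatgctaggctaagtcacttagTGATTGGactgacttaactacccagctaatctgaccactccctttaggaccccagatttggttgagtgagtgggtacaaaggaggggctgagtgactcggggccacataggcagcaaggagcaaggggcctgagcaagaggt

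TGATTGG or CCAATCA was present in 12 of 17 class I windows and in 7 of 8 class II windows. The share was 7.82% of 32851 RefSeq promoter windows of the same length. The match began at -53 relative to the start in H2-D1, -50 in H2-Aa, -61 in H2-Eb1 and -63 in H2-DMb1, and at -6 in H2-K1. In the printed class I windows it was CCAATCA, and whether class I matches are a Y box was not tested. The interferon-response sequence was found in 8 of 17 class I windows (47.1%), in 0 of 8 class II windows and in 0.399% of all windows. The kappa B sequence was found in 4 of 17 class I windows, those of H2-K1, H2-D1, H2-Q6 and H2-Q7, in 0 of 8 class II windows and in 0.353% of all windows. These 3 motifs do not overlap one another in the printed windows. H2-K1 and H2-D1 were alike over 252 aligned bases (88.1% identical), and so were H2-DMb1 and H2-DMb2 over 246 (84.6%), while H2-Aa and H2-Eb1 matched at 54.6% of 207 aligned bases. The RefSeq start of H2-DMb2 lies 1942 bases inside the gene as the count table bounds it, and that of H2-D1 364 bases inside. H2-DMa was the class II gene without TGATTGG or CCAATCA. Its RefSeq start lies 9664 bases before the gene as the count table bounds it. Its window may therefore not be the promoter of the gene as counted. A match is a run of letters only, and no binding was measured.

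**Figure D1:**
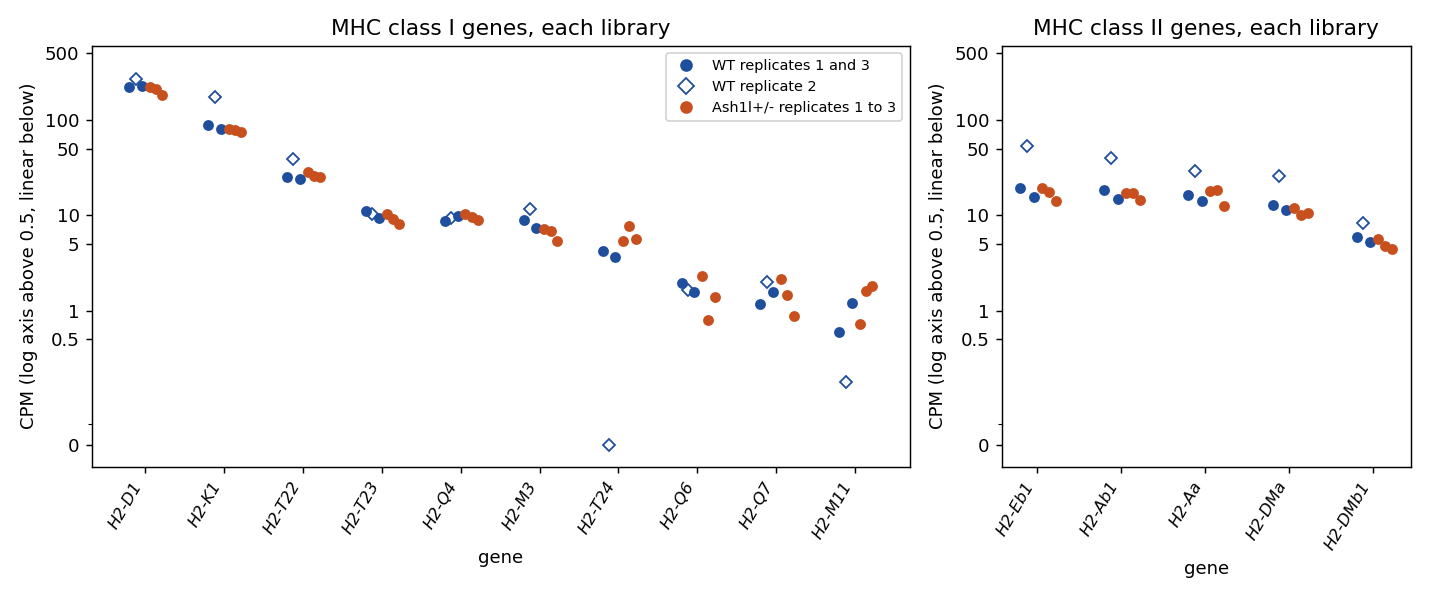
CPM of every MHC gene with a mean of at least 1 CPM, in each of the 6 libraries, for class I (left) and class II (right). The vertical axis is logarithmic above 0.5 and linear below, and each point is 1 library. WT replicate 2 lies above every other library for all 5 class II genes, and H2-T24 is at 0 in WT replicate 2.

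Across the family, no gene passed the test of genotype with 6 libraries. Of the 29 genes, 16 had enough reads to be tested, 11 of class I and 5 of class II, and edgeR's quasi-likelihood test called 0 of them at an adjusted p of 0.05. It also called 0 of the 16032 genes tested (0%), with 1702 at an unadjusted p under 0.05, none of them an MHC gene. DESeq2 called 35 genes (0.22%), none of them from either MHC class, and limma-voom called 0. When WT replicate 2 was left out, the share of 16395 genes called was 19.8% (9.39% upward and 10.4% downward), and 1 of the 16 MHC genes was called, the class I gene H2-T24, which was higher in Ash1l+/-. After trends with GC content and gene length were taken out of the same 5 libraries, 7.06% of genes and 0 of the 16 were called. The median log2 fold change of the 11 class I genes was -0.15 with 6 libraries and -0.08 without WT replicate 2, that of the 5 class II genes was -0.60 and -0.05, and that of all genes tested was 0.00 both times. The 95% intervals lay inside a 2-fold change in either direction for 5 of the 16 MHC genes with 6 libraries and for 12 of 16 without WT replicate 2. With 6 libraries, intervals of the other 11 reached past 2-fold.

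**Figure D2:**
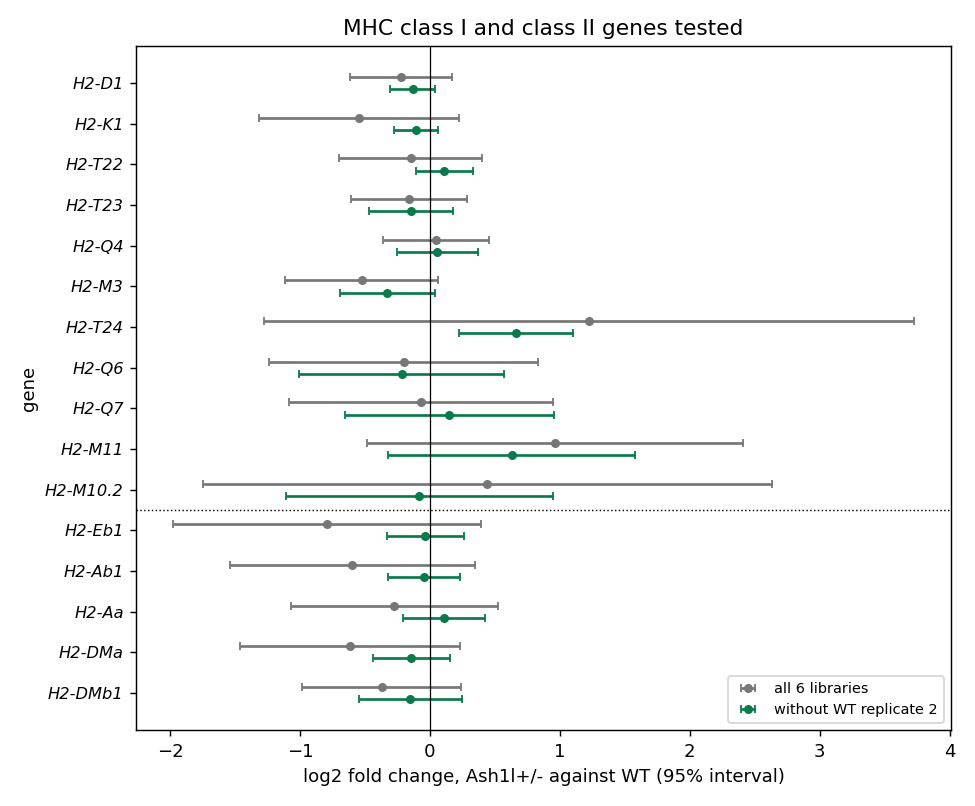
Log2 fold change of Ash1l+/- against WT with its 95% interval from edgeR for the 16 MHC genes tested, with all 6 libraries (grey) and without WT replicate 2 (green); genes above the dotted line are class I, those below it class II. All 16 grey intervals cross 0, and among the green intervals only that of H2-T24 does not, from 0.23 to 1.10.

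H2-D1 and H2-K1, the classical class I heavy chains that present peptides to CD8 T cells, made up most class I RNA. By the authors' FPKM, which is per gene length, the pair held 80.7% to 85.7% of the class I total in each library. H2-D1 FPKM was 2.45 to 2.88 times that of H2-K1 in 5 libraries and 1.55 times in WT replicate 2. H2-D1 (chromosome 17, 35262730 to 35267499, plus strand) had 222.8, 267.8 and 227.2 CPM in the WT replicates and 222.4, 210.0 and 182.5 in the Ash1l+/- replicates. The groups did not overlap, but the highest Ash1l+/- library lay only just under the lowest WT library. The log2 fold change was -0.22 ± 0.16 (SE, n = 3 and 3, edgeR adjusted p = 0.449) with 6 libraries and -0.13 ± 0.08 (adjusted p = 0.281) without WT replicate 2, where its 95% interval ran from -0.31 to 0.04. After removal of GC and length trends in those 5 libraries it was 0.10, with the opposite sign.

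H2-K1 (33996017 to 34000333, minus strand) had 89.3, 174.5 and 79.8 CPM in the WT replicates and 80.4, 79.6 and 75.2 in the Ash1l+/- replicates. WT replicate 2 was alone in being high, at 2.06 times the mean of WT replicates 1 and 3, and the other 5 libraries lay close together. The log2 fold change was -0.55 ± 0.32 (adjusted p = 0.399) with all libraries and -0.11 ± 0.08 (adjusted p = 0.371) without that library. Of 50-base windows in their transcripts, 10.9% of those of H2-D1 and 9.63% of those of H2-K1 occur in other H2- genes, so a part of their reads may be shared or lost among copies.

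Next in level came the nonclassical class I genes of the T, Q and M regions, whose products have restricted roles in presenting special peptides or in being seen by natural killer and gamma delta T cells. H2-T22, a ligand of gamma delta T cell receptors, had 25.5, 39.3 and 24.1 CPM in the WT and 28.6, 25.9 and 25.6 in the Ash1l+/- replicates. All 3 Ash1l+/- libraries lay above WT replicates 1 and 3 and below WT replicate 2. Its log2 fold change was -0.15 ± 0.23 (edgeR adjusted p = 0.696) with 6 libraries and 0.11 ± 0.10 (adjusted p = 0.492) without WT replicate 2. Of its windows 31.2% also occur in H2-T10, a gene of another biotype, so how reads were split between these copies is uncertain. H2-T23, the mouse counterpart of HLA-E that signals to natural killer cells, had 11.1, 10.5 and 9.38 CPM in the WT and 10.4, 9.23 and 8.07 in the Ash1l+/- replicates, so the groups overlapped (log2 fold change -0.16 ± 0.18, edgeR adjusted p = 0.608, and -0.15 ± 0.16, adjusted p = 0.552, without WT replicate 2). Here WT replicate 2 lay between the other WT libraries.

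H2-T24 was the only one of the 16 MHC genes tested that passed the test without WT replicate 2. It had 86, 0 and 70 reads in the WT and 117, 145 and 101 in the Ash1l+/- replicates. In CPM these are 4.25, 0 and 3.63 against 5.36, 7.78 and 5.62, so the groups did not overlap with or without WT replicate 2. A count of 0 in WT replicate 2 allows up to 0.224 CPM (3 counts, counting error only). That library had 0 reads in 492 of the genes tested (3.07%). In 36 of these, H2-T24 among them, every other library had at least 3.63 CPM. With 6 libraries the log2 fold change was 1.22 ± 1.03 (edgeR adjusted p = 0.501), and without WT replicate 2 it was 0.66 ± 0.21 (adjusted p = 0.0310), a value higher in 3 of 3 Ash1l+/- libraries than in both WT libraries left. The call ended after removal of GC and length trends (0.67, adjusted p = 0.0526) and when Ash1l+/- replicate 2 was also left out (0.48, adjusted p = 0.169). It also ended with a single WT library left, at 0.78 without WT replicate 1 and 0.55 without WT replicate 3. The call held when Ash1l+/- replicate 1 (0.76, adjusted p = 0.0134) or Ash1l+/- replicate 3 (0.73, adjusted p = 0.0372) was also left out. An antisense gene, A930015D03Rik, spans H2-T24 and H2-T23 and overlaps H2-T22, by whole gene bounds and not by exons. The strand setting of the counting is not given, so whether reads of the 2 strands were told apart is not known. How reads in the overlap were counted is not known. A930015D03Rik was assigned 21 reads in all libraries together. Only 1.24% of the windows of H2-T24 occur in other H2- genes.

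H2-M3, which presents peptides beginning with N-formyl methionine, as bacteria and mitochondria make them, had 8.99, 11.7 and 7.36 CPM in the WT and 7.19, 6.81 and 5.45 in the Ash1l+/- replicates. Every Ash1l+/- library was below every WT library. The log2 fold change was -0.53 ± 0.24 (edgeR adjusted p = 0.385) with 6 libraries and -0.33 ± 0.17 (adjusted p = 0.196) without WT replicate 2. Counted over the 16 genes tested with 6 libraries, the groups did not overlap for 3, namely H2-T24 above and H2-D1 and H2-M3 below, against 38.5% of all genes tested. In the 5 libraries without WT replicate 2 they did not overlap for 4, with H2-T22 added above, against 49.2%. Both counts of MHC genes are below the share over all genes.

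In the Q region, H2-Q4 had 8.74, 9.41 and 9.85 CPM in the WT and 10.4, 9.55 and 8.91 in the Ash1l+/- replicates. No library stood out, and its log2 fold change was 0.05 ± 0.17 (edgeR adjusted p = 0.872) and 0.06 ± 0.15 (adjusted p = 0.827) without WT replicate 2, with an interval from -0.26 to 0.37. H2-Q6 and H2-Q7, of which H2-Q7 encodes a Qa-2 antigen, ranged from 0.805 to 2.29 and from 0.891 to 2.15 CPM with overlapping groups. Their log2 fold changes were -0.20 ± 0.43 (edgeR adjusted p = 0.777) and -0.07 ± 0.42 (adjusted p = 0.925) with 6 libraries, and -0.22 ± 0.38 (adjusted p = 0.730) and 0.15 ± 0.38 (adjusted p = 0.820) without WT replicate 2. Of their windows, 27.0% and 25.1% occur in other H2- genes, so the split of reads between these Q genes is uncertain. H2-M11, of the M genes known from vomeronasal sensory neurons, had 12, 4 and 23 reads in the WT and 16, 30 and 33 in the Ash1l+/- replicates (0.593, 0.299 and 1.19 CPM against 0.732, 1.61 and 1.84). Its groups overlapped, and the log2 fold change of 0.96 ± 0.60 (adjusted p = 0.408) became 0.63 ± 0.46 (adjusted p = 0.359) without WT replicate 2. By FPKM over 6 libraries, H2-D1, H2-K1 and H2-T22 led class I in that order, and the next in order, H2-M3 (3.88 to 8.25), H2-Q4 (3.44 to 4.13) and H2-T23 (2.86 to 3.93), overlapped across libraries.

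The class II alpha and beta chains were also close between genotypes once WT replicate 2 was set aside. H2-Eb1, the beta chain of H2-E, had 19.5, 53.6 and 15.6 CPM in the WT and 19.3, 17.8 and 14.1 in the Ash1l+/- replicates. H2-Ab1, the beta chain of H2-A, had 18.7, 40.3 and 15.0 CPM against 17.0, 17.4 and 14.4. H2-Aa, its alpha chain, had 16.4, 29.1 and 14.1 CPM against 17.9, 18.7 and 12.5. In all 3 genes, WT replicate 2 was the highest library and the Ash1l+/- replicates overlapped WT replicates 1 and 3. With 6 libraries the log2 fold changes were -0.79 ± 0.49 for H2-Eb1 (edgeR adjusted p = 0.408), -0.60 ± 0.39 for H2-Ab1 (adjusted p = 0.420) and -0.27 ± 0.33 for H2-Aa (adjusted p = 0.622). In the other 5 libraries they were -0.04 ± 0.14 (adjusted p = 0.888), -0.05 ± 0.13 (adjusted p = 0.836) and 0.11 ± 0.15 (adjusted p = 0.657). None of the transcript windows of these chains occurs in another H2- gene. Per length, H2-Eb1 held 32.3% to 42.2% of class II FPKM, H2-Ab1 21.7% to 23.8% and H2-Aa 14.4% to 22.1%.

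H2-DMa and H2-DMb1 encode the H2-DM pair, which releases the invariant chain remnant and edits the peptides that class II molecules keep. H2-DMa had 12.8, 26.1 and 11.3 CPM in the WT and 12.0, 10.1 and 10.5 in the Ash1l+/- replicates (log2 fold change -0.62 ± 0.35, edgeR adjusted p = 0.395, and -0.14 ± 0.14, adjusted p = 0.517, without WT replicate 2). H2-DMb1 had 5.88, 8.29 and 5.24 CPM against 5.72, 4.77 and 4.45 (-0.37 ± 0.25, adjusted p = 0.430, and -0.15 ± 0.19, adjusted p = 0.626). For both genes the groups overlapped. With WT replicate 2 left out, the 95% intervals of all 5 class II genes tested lay between -0.55 and 0.43, inside a 2-fold change in either direction. With 6 libraries, 1 of these 5 intervals did so.

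The class II level set WT replicate 2 apart more than the class I level did. Summed over the 9 genes, class II CPM was 74.5, 158.4 and 62.0 in the WT and 72.8, 69.2 and 56.2 in the Ash1l+/- replicates, which puts WT replicate 2 at 2.32 times the mean of WT replicates 1 and 3. The class I sum was 376, 517 and 367 against 371, 355 and 316, with WT replicate 2 at 1.39 times. Markers of other cells moved in the same library. The sum of 14 macrophage markers was 148.6 CPM in WT replicate 2 and 76.7 to 91.1 in the others. Of these markers 7 lay above and 4 below all other libraries there. Complement C1qa, made by macrophages, was at 6.42 times the mean of WT replicates 1 and 3, and the macrophage receptor Csf1r was at 1.10 times. The sum in WT replicate 2 was 2.55 times that mean for 8 endothelial markers and 6.98 times for 5 erythrocyte markers. It was 12.0 times for 7 skeletal muscle markers, 1.94 times for 7 B cell markers and 0.908 times for 8 dendritic cell markers. Over single markers, the median ratio was 1.14 for macrophages, 1.23 for endothelium and 5.70 for erythrocytes. It was 13.6 for skeletal muscle, 1.66 for B cells and 0.920 for dendritic cells. Sums of other lists were at 2.05 (neutrophil and mast cell), 2.02 (T and NK cell), 1.21 (Schwann cell), 1.11 (satellite glia) and 0.756 times (fibroblast). Of 6 satellite glia markers, 1 lay above and 5 below all other libraries. The 9 sensory neuron markers were at 1.85 times by their sum, with 7 of them below all other libraries and 2 above. The part of these cells in the class II values was not tested. Between genotypes without WT replicate 2, the macrophage sum was 85.1 and 91.1 CPM in the WT and 79.7, 85.2 and 76.7 in the Ash1l+/- libraries.

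Among the 13 MHC genes with too few reads to test, H2-DMb2 and H2-Q1 were singled out after their values were seen. H2-DMb2, a second H2-DM beta chain, had 18, 7 and 5 reads in the WT and 2, 0 and 1 in the Ash1l+/- replicates, so the groups did not overlap. The WT libraries held 11.05 times as many reads relative to library size (95% counting interval 3.44 to 56.6 from 30 reads against 3), or 11.3 times without WT replicate 2 (3.42 to 59.0). These intervals cover counting error only. With the count filter removed, edgeR gave a log2 fold change of -3.27 (p = 0.00939, adjusted p = 0.568), and the exact two-sided permutation test gave p = 0.1, the smallest possible. Of its transcript windows, 21.2% occur in H2-DMb1, whose own level overlapped between groups. The 7 B cell markers summed to 3.61, 5.98 and 2.54 CPM in the WT and 1.92, 3.00 and 1.84 in the Ash1l+/- libraries. Only 1 of them had enough reads to test. Its log2 fold change was -0.44 (edgeR adjusted p = 0.472) with 6 libraries and -0.16 (adjusted p = 0.762) without WT replicate 2. With GC and length trends also removed it was 0.04 (adjusted p = 0.958). The part of B cells in the H2-DMb2 counts was not tested.

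H2-Q1, a nonclassical class I gene, had 2, 0 and 0 reads in the WT and 5, 4 and 5 in the Ash1l+/- replicates, a ratio of 6.34 (95% counting interval 1.46 to 57.4). Its exact permutation p was also 0.1. Over all 29 genes the groups did not overlap for 5 with 6 libraries and for 6 without WT replicate 2, against 24.4% and 33.2% of the 28721 genes with any read. H2-M10.2, tested but below 1 CPM on average, and H2-M1, H2-M9, H2-M10.1 and H2-M10.4, all of the vomeronasal group of M genes, were sparse, as were H2-M5, H2-Q2 and the liver-secreted H2-Q10. On the class II side H2-Oa and H2-Ob, which form the H2-O inhibitor of H2-DM, and H2-Eb2 were sparse. H2-Ke6, which encodes a hydroxysteroid dehydrogenase and no MHC molecule, had 2 to 10 reads per library and shares its place with Gm20427 on the same strand.

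**Figure D3:**
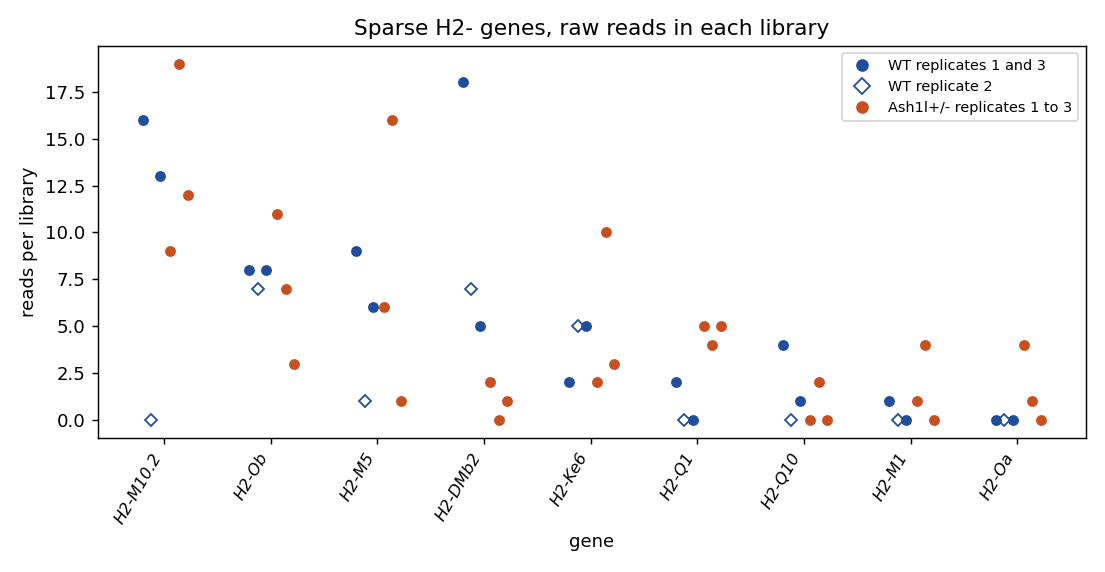
Raw reads per library for the H2- genes that average under 1 CPM and have at least 5 reads in all; each point is 1 library. H2-DMb2 has 5 to 18 reads in the WT and 0 to 2 in the Ash1l+/- libraries, H2-Q1 has 0 to 2 and 4 to 5, and the groups overlap for the other genes shown.

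Among 15 genes that help load class I molecules, 0 passed edgeR's test with 6 libraries (2 at an unadjusted p under 0.05) and 0 passed with DESeq2 or limma-voom. In the fit without WT replicate 2, 5 were higher and 1 was lower in Ash1l+/-, where 19.8% of all genes were called (9.39% upward and 10.4% downward). After GC and length trends were removed, 1 of these calls was left, that of Calr, against 7.06% of all genes. This list and the class II list below held 8 calls without WT replicate 2. Leaving out Ash1l+/- replicate 1, 2 or 3 as well gave 9, 5 and 5 calls. Those fits called 4198 of 16159, 1855 of 16226 and 2120 of 16266 genes. B2m, the light chain shared by class I molecules, had 118, 187 and 125 CPM in the WT and 164, 172 and 146 in the Ash1l+/- replicates. All 3 Ash1l+/- libraries lay above WT replicates 1 and 3 and below WT replicate 2. Its log2 fold change was 0.17 ± 0.22 (edgeR adjusted p = 0.653) with 6 libraries and 0.41 ± 0.08 (adjusted p = 0.00227) without WT replicate 2, and 0.22 (adjusted p = 0.0957) once GC and length trends were removed. The heavy chains H2-D1 and H2-K1 had log2 fold changes of -0.13 and -0.11 in the same 5 libraries, and of 0.10 and 0.07 once those trends were removed, with the same sign as B2m.

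**Figure D4:**
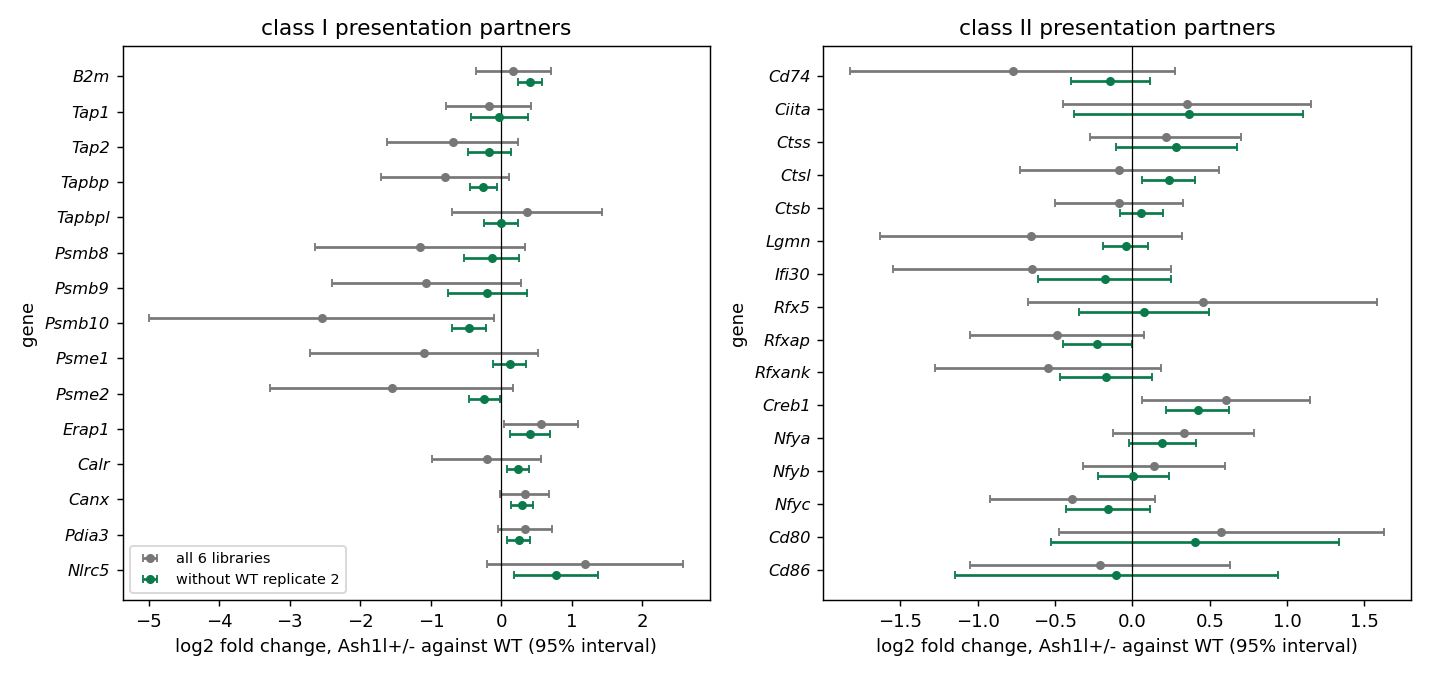
Log2 fold change of Ash1l+/- against WT with its 95% interval from edgeR for genes that help load class I molecules (left) and class II molecules or control their genes (right), with all 6 libraries (grey) and without WT replicate 2 (green). The grey intervals are wide, down to -4.99 for Psmb10, and the green ones are narrow, with B2m at 0.41 and Psmb10 at -0.46.

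The other class I partners called higher without WT replicate 2 act in the endoplasmic reticulum. Not every listed gene of that compartment was higher. Erap1, which trims peptides there, had a log2 fold change of 0.40 ± 0.14 (edgeR adjusted p = 0.0438), from 9.68 and 9.90 CPM in WT replicates 1 and 3 to 12.2, 14.1 and 12.6. Calr, Canx and Pdia3, chaperones that fold class I heavy chains and most other glycoproteins, had values of 0.23 (adjusted p = 0.0347), 0.29 (adjusted p = 0.0115) and 0.25 (adjusted p = 0.0294). By contrast, Tapbp was at -0.26 (edgeR adjusted p = 0.0545) in this fit, with every Ash1l+/- library below every WT library. The transporter gene Tap2 was at -0.17 (adjusted p = 0.450), its partner Tap1 at -0.03 (adjusted p = 0.931) and Tapbpl at -0.01 (adjusted p = 0.974). Whether the compartment plays a part was not tested. With 6 libraries, Erap1 was at 0.56 (edgeR adjusted p = 0.385) and Calr, with the opposite sign, at -0.21 (adjusted p = 0.698). Canx and Pdia3 were then at 0.33 each (adjusted p = 0.385 for both). Without WT replicate 2 and with trends removed, Erap1 was at 0.15, Calr at 0.27, Canx at 0.10 and Pdia3 at 0.18. WT replicate 2 was the highest library for Calr, at 653 CPM against 313 to 394, and the lowest for Canx and Pdia3. Psmb10, an immunoproteasome subunit, was lower, with 34.3 and 31.8 CPM in WT replicates 1 and 3 against 27.8, 23.1 and 21.1 in Ash1l+/- (-0.46 ± 0.12, adjusted p = 0.00913). It had 355 CPM in WT replicate 2, which is 10.8 times the mean of the other WT libraries, and the 6-library value was -2.55 ± 1.01 (adjusted p = 0.385).

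Nlrc5, the class I co-activator, had 2.32, 0.448 and 1.76 CPM in the WT and 3.66, 4.45 and 2.39 in the Ash1l+/- replicates. The groups did not overlap, as in 38.5% of all genes tested. The log2 fold change was 1.19 ± 0.57 (edgeR adjusted p = 0.385) with 6 libraries and 0.78 ± 0.29 (adjusted p = 0.0601) without WT replicate 2. Tap1, of the peptide transporter, had 7.56, 8.37 and 5.08 CPM against 6.68, 6.33 and 5.51, with overlapping groups. Its log2 fold change was -0.18 ± 0.25 (edgeR adjusted p = 0.668) with 6 libraries and -0.03 ± 0.19 (adjusted p = 0.931) without WT replicate 2.

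Of 16 genes that load class II molecules or control their genes, 0 passed edgeR's test with 6 libraries (1 at an unadjusted p under 0.05) and 0 passed with DESeq2 or limma-voom. With WT replicate 2 left out, 2 of the 16 were higher and 0 lower, where 19.8% of all genes were called, 9.39% upward. After GC and length trends were removed 0 were called, against 7.06% of all genes. Cd74, the invariant chain, had 43.1, 109.5 and 39.8 CPM in the WT and 43.0, 40.1 and 29.3 in the Ash1l+/- replicates, with WT replicate 2 at 2.64 times the mean of the other WT libraries, near the 2.32 times of the class II sum. Its log2 fold change was -0.77 ± 0.43 (adjusted p = 0.392) with 6 libraries and -0.14 ± 0.12 (adjusted p = 0.449) without WT replicate 2. Ciita, the class II co-activator, had 1.43, 1.34 and 1.24 CPM against 2.33, 1.29 and 1.5, with overlapping groups. Its log2 fold change was 0.35 ± 0.33 (edgeR adjusted p = 0.540) with 6 libraries and 0.37 ± 0.35 (adjusted p = 0.506) without WT replicate 2. The genes called were Creb1, a transcription factor of the class II enhanceosome and of many other genes, at 0.42 (adjusted p = 0.0052), and Ctsl, a lysosomal protease that degrades the invariant chain, at 0.23 (adjusted p = 0.0484). With 6 libraries, Creb1 was at 0.60 (edgeR adjusted p = 0.385) and Ctsl, with the opposite sign, at -0.08 (adjusted p = 0.848). Without WT replicate 2 and with the trends removed, Creb1 was at 0.05 (adjusted p = 0.785) and Ctsl at 0.07 (adjusted p = 0.598).

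Of 13 genes of the interferon gamma pathway, 11 were tested and 0 passed edgeR's test with 6 libraries (1 at an unadjusted p under 0.05), nor did any with DESeq2 or limma-voom. Ifng itself had 2 reads, both in Ash1l+/- replicate 1. Without WT replicate 2, 1 of the 11 was higher, against 9.39% of all genes called upward. It was the receptor kinase gene Jak2, with 24.5 and 24.8 CPM in WT replicates 1 and 3 against 33.0, 34.5 and 29.4 in Ash1l+/- (0.39 ± 0.10, adjusted p = 0.0125). That call was lost with GC and length trends removed (0.25, adjusted p = 0.118). With 6 libraries Jak2 was at 0.59 (edgeR adjusted p = 0.385). The median log2 fold change of the 11 genes was 0.19 with 6 libraries and 0.16 without WT replicate 2, against 0.00 over all genes tested both times.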

How the data were processed

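The authors deposited raw read counts per gene and FPKM for the same genes, with symbols, positions, lengths and biotypes. The counts came from HISAT2 2.0.5 and featureCounts 1.5.0-p3 on GRCm38 (mm10), per the submitters' processing notes, and their parameters are not known here. Per the labels' protocols, Trizol was used for the RNA and a NEBNext Ultra kit for the libraries. The deposited FPKM values were used only to compare levels between genes. Genotypes follow the labels.

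Counts were filtered with filterByExpr and tested over the whole table in R 4.3.3 (edgeR 4.0.16, glmQLFTest), with TMM scaling, Benjamini-Hochberg adjustment and a threshold of 0.05. Alternatives were RLE factors, no filter, DESeq2 1.42.0, limma-voom (limma 3.58.1), the replicate number as a block, each library left out, and GC and length trends removed by loess offsets (span 0.3, clipped at the 1 and 99 percentiles, GC of the longest GENCODE transcript, found for 99.8% of genes). Library totals as scaling, trends removed with 6 libraries, and a further library left out of the 5 were chosen after seeing the data. The fits were tested on simulated counts. Counting intervals (95%, exact, Python 3.11.15 with SciPy 1.17.1) cover counting error only. The permutation tests used log2(CPM + 0.5).

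Genes, lists and the place given to the results without WT replicate 2 were chosen with earlier results of these data known. MHC genes with a mean of at least 1 CPM are named with values and others are counted. B2m, Cd74, Ciita, Nlrc5 and Tap1 are always named, with up to 5 others per partner list past the threshold. Shares of 50-base windows were computed within GENCODE transcripts of H2- genes.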

Additional observations from a re-analysis of the deposited data

How the results depend on the processing

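With 6 libraries, the count of MHC genes called was 0 for either class under RLE factors, no filter, DESeq2, limma-voom, library totals, GC and length trends removed, and each library left out, except that H2-T24 was called without WT replicate 2. Genes called over the whole table were 0 in edgeR, 35 with DESeq2 and 0 to 3252 as each library was left out, the highest without WT replicate 2. The partner genes called were 0 to 8 over the same libraries. In the 5 libraries without WT replicate 2, removing GC and length trends left 1156 genes, 0 class I genes and 1 partner gene. Leaving a further library out gave 796 to 4198 genes, 0 to 1 class I genes, 0 to 1 class II genes (H2-DMb2, which entered the test with WT replicate 1 as the sole WT library, through its 18 reads there, and is no support) and 1 to 9 partner genes, where the low of 796 came without WT replicate 1, with 1855 without Ash1l+/- replicate 2 and 2120 without Ash1l+/- replicate 3. Partner genes were then 1 without WT replicate 1 and 5 without WT replicate 3, Ash1l+/- replicate 2 or Ash1l+/- replicate 3. With 1 WT library left, its spread is assumed to be like that of the other group.

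The class I median log2 fold change of -0.15 was 0.46 with no count filter, which adds sparse genes, and -0.25 to -0.04 as each library was left out. It was 0.0405 with library totals, 0.16 with trends removed and 0.0968 with trends removed and without WT replicate 2. The class II median of -0.60 was -0.82 to -0.0473 as each library was left out, -0.36 with library totals, -0.0667 with trends removed and 0.0654 with trends removed and without WT replicate 2. Library totals moved the median of all genes to 0.13.

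Single MHC genes changed sign only at values not called. As each library was left out, H2-T22 ran from -0.27 to 0.11, H2-Aa from -0.46 to 0.11, H2-Q4 from -0.0108 to 0.10, H2-Q7 from -0.42 to 0.20 and H2-Q6 from -0.65 to 0.10. Leaving out WT replicate 2 gave 0.11 for H2-T22, 0.11 for H2-Aa and 0.15 for H2-Q7. With trends removed as well, H2-D1 was 0.10, H2-K1 0.0725, H2-T22 0.16, H2-Eb1 0.0753, H2-Ab1 0.23, H2-Aa 0.0509, H2-DMa 0.0654, H2-T23 0.0353, H2-DMb1 0.0157 and H2-Q7 0.23. With trends removed in 6 libraries, H2-D1 was 0.18, H2-Ab1 0.10, H2-T23 0.13, H2-DMb1 0.0532 and H2-Q6 0.16. With library totals, H2-T22 was 0.0405 and H2-Q7 0.11. The sign of H2-Q4 changed without Ash1l+/- replicate 1, that of H2-Q7 also without Ash1l+/- replicate 3, and that of H2-Q6 without Ash1l+/- replicate 2. The cause was not tested. The H2-D1 share of class I was 57.8% by FPKM and by CPM per kilobase. At 3 counts, the depth allows no statement below 0.137 to 0.224 CPM in a library.

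With the replicate number as a block, 0 genes were called, and the class medians were -0.13 and -0.47. Same-numbered WT and Ash1l+/- libraries deviated from their group means with correlations of 0.00052, -0.032 and 0.038 across genes. WT replicate 2 lay far from the other WT libraries and so shifts every WT deviation. These values therefore cannot tell whether the numbers pair the samples. The block changed no call.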

Other observations

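Genes of class I fold outside the H2- symbols were listed with the MHC genes, and 6 of 8 were tested. None passed edgeR's test, with 6 libraries or without WT replicate 2. At an unadjusted p under 0.05, 1 did so with 6 libraries and 2 without that library, and DESeq2 and limma-voom called 0. Over all genes tested, 1702 of 16032 and 5440 of 16395 had an unadjusted edgeR p under 0.05. Fcgrt, the neonatal Fc receptor that salvages immunoglobulin and albumin, had 27.8, 101 and 24.7 CPM in the WT and 23.8, 19.7 and 20.4 in the Ash1l+/- replicates, so WT replicate 2 was at 3.86 times the mean of the other WT libraries. Mr1, which presents vitamin B metabolites, had 5.98, 2.32 and 6.12 CPM against 7.28, 7.67 and 6.57. The groups did not overlap in either gene, below for Fcgrt and above for Mr1. Of the 6 tested, 2 lay above and 1 below without overlap with 6 libraries, against 38.5% of all genes tested in either direction. Cd1d1, which presents lipids to natural killer T cells, had 2.52, 3.29 and 2.23 CPM against 2.79, 2.95 and 2.56, with overlapping groups. Fcgrt, Mr1 and Cd1d1 were picked with their values in view.

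The H2- symbols also name 11 genes of other biotypes, mostly pseudogenes. H2-K2, close to H2-K1, had the most reads, with 62, 115 and 49 in the WT and 35, 58 and 51 in the Ash1l+/- replicates, and WT replicate 2 was its highest library, as it was for H2-K1. H2-T10, which shares windows with H2-T22, had 13, 23 and 12 reads against 8, 17 and 10. H2-Q5 had 18, 0 and 3 reads against 14, 11 and 3. Reads of H2-Ea-ps were found only in WT replicate 2, where there were 3.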
